A study of Homo sapiens with 4 samples.

Results

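MIR664A, MIR1248, MIR1291 and MIR3651 are 4 microRNA (miRNA) genes that lie inside the loci of H/ACA box small nucleolar RNAs (snoRNAs). They were taken by symbol from 1870 miRNA features among 7062 small RNA features, and each was paired with the snoRNA feature that overlapped it by chromosome, position and strand. The pairs were MIR664A with SNORA36B, MIR1248 with SNORA81, MIR1291 with SNORA34 and MIR3651 with SNORA84. All 4 miRNAs had counts, and 3 of them were abundant enough to be tested. In all, 5 miRNA features overlapped an H/ACA snoRNA on the same strand, the fifth being MIR664B in SNORA36A, which is described as a relative.

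Small RNA sequencing was applied to HEK293T cells, a human embryonic kidney line that the sample labels give as HEK293. Cells were transiently transfected with 1.5 µg of plasmid per well and selected the next day in 2.5 µg/ml α-amanitin for 72 h, so both groups shared the transfection and the toxin, and neither was untreated. α-Amanitin inhibits the RNA polymerase II of the cell and leads to loss of its largest subunit, RPB1, while the plasmids supplied RPB1 versions with 52 heptad repeats in the C-terminal domain (CTD), either wild type (52X WT) or T4A (52X T4A), in which alanine stands for threonine at heptad position 4. Each group had 2 libraries of 50 bp single-end reads, given as biological replicates, and p-values therefore measure only the spread between these libraries. The labels do not name the promoter of the plasmids, and a transient transfection gives a mixed population of cells.

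H/ACA snoRNAs are folded into hairpins followed by the H box and the ACA box, and with dyskerin they guide the conversion of uridine to pseudouridine in ribosomal and spliceosomal RNA. In human cells most are cut from introns of host genes. Some snoRNA hairpins are also cut further into short RNAs of miRNA length, and several entries first recorded as miRNAs were found to lie in snoRNAs. Canonical miRNAs are cut from hairpins by Drosha and Dicer, and bases 2 to 8, the seed, pair with target mRNAs.

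The mature miRNAs of the 4 genes are shown first because their seeds and their places in the snoRNAs differ from member to member. They are the RefSeq sequences for GRCh38.p14, 5′ to 3′, with the seed in capitals.
miR-664a-5p: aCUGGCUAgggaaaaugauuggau
miR-664a-3p: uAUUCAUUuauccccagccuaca
miR-1248: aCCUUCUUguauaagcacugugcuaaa
miR-1291: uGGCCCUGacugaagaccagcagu
miR-3651: cAUAGCCCggucgcugguacauga
No seed was shared among them. The seed of miR-664a-5p was found in 1 other human mature name, miR-4794, that of miR-1291 in 1, miR-6775-3p, and those of miR-664a-3p, miR-1248 and miR-3651 in 0 others.

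The host snoRNAs are shown so that the position of each mature miRNA can be read from the sequence. They are the GENCODE v44lift37 transcripts of the same Ensembl identifiers, in DNA letters and 5′ to 3′ on the transcribed strand, with the mature miRNA in capitals.
SNORA36B: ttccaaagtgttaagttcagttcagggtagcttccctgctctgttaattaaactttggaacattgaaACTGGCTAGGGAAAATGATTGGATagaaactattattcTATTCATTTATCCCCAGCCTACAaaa
SNORA81: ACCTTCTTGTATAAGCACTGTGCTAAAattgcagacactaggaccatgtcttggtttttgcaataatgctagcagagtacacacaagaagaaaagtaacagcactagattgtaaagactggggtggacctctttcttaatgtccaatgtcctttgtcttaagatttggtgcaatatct
SNORA34: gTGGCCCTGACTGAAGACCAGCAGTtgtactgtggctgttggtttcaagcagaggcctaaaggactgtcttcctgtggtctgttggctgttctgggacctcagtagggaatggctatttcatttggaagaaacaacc
SNORA84: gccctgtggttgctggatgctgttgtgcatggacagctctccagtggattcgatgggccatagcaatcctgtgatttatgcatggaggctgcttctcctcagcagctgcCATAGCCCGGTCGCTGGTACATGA
MIR664A and MIR3651 used the 3′ part of their snoRNAs. miR-664a-3p covered bases 106 to 128 of the 131 bases of SNORA36B and stopped 3 bases from its end, so that it contained the terminal ACA, and miR-664a-5p covered bases 68 to 91. miR-3651 covered bases 110 to 133 of SNORA84, up to the last base, and also contained the terminal ACA. MIR1248 and MIR1291 used the 5′ part instead: miR-1248 was bases 1 to 27 of SNORA81, and miR-1291 was bases 2 to 25 of SNORA34. The letters ACA, searched on the transcribed strand, stood 3 bases before the 3′ end in SNORA36B, SNORA34 and SNORA84 and in 234 of 381 H/ACA features with a sequence (61.4%). They did not in SNORA81, which is annotated with 178 bases, but did in the MIR1248 hairpin, which ends at base 103 of SNORA81, as in 28 of 1560 RefSeq miRNA hairpins (1.79%). By comparison, 538 of 2370 human mature miRNAs held the letters ACA anywhere (22.7%).

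The features were located as follows on GRCh38. MIR664A (ENSG00000281696.1, chr1:220200538-220200619, minus strand, 82 bases) shared 74 bases with SNORA36B (chr1:220200546-220200676) and ran 8 bases past it. MIR1248 (ENSG00000283958.1, chr3:186786672-186786777, plus strand, 106 bases) shared 103 bases with SNORA81 (chr3:186786675-186786852). MIR1291 (ENSG00000281842.2, chr12:48654444-48654530, minus strand, 87 bases) shared 75 bases with SNORA34 (chr12:48654382-48654518). MIR3651 (ENSG00000281156.1, chr9:92292458-92292547, minus strand, 90 bases) shared 87 bases with SNORA84 (chr9:92292461-92292593). Each lay within a protein-coding gene on the same strand. SNORA36B was intronic in RAB3GAP2, a subunit of a Rab GTPase regulator, SNORA34 in KANSL2, a subunit of a histone acetyltransferase complex, and SNORA84 in IARS1, the cytosolic isoleucyl-tRNA synthetase, with 0 annotated transcripts carrying an exon over them. SNORA81 lay in EIF4A2, an RNA helicase of translation initiation, where 13 annotated transcripts spanned it and 2 annotated transcripts had an exon over it. Whether those 2 are among the 13 was not checked.

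**Figure D1:**
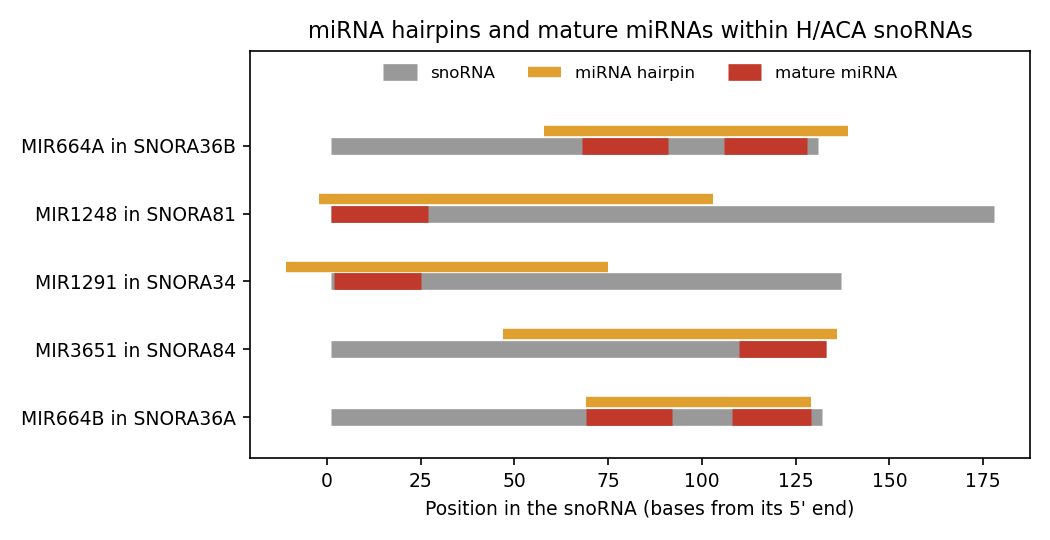
Position of the miRNA hairpins (orange) and mature miRNAs (red) within their H/ACA snoRNAs (grey), in bases from the snoRNA 5′ end. miR-1248 and miR-1291 start at bases 1 and 2, whereas miR-3651 ends at base 133, the last of SNORA84.

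Total counts per library ranged from 16180790 to 27370127. H/ACA snoRNAs held between 0.0685% and 0.0942% of them and miRNA features between 63.5% and 75.3%, and the 4 member miRNAs together held between 93 and 274 counts per library. Members of the miR-17-92 cluster, which is abundant in HEK293 cells, ranged from 40.4 to 13161 CPM (counts scaled to the size of each library). These values alone do not identify the line. Of miRNAs of other cell types, the muscle miRNA MIR1-1 had 738 and 1259 counts in 52X T4A and 220 and 309 in 52X WT, MIR206 had 30 and 6 against 1 and 1, and MIR133A1 had 10 and 29 against 2 and 3. MIR1-1 ranged from 15.1 to 46.6 CPM, so its highest value exceeded the lowest of the cluster. The blood miRNA MIR142 had 14 and 17 against 4 and 10, MIR451A had 8 and 13 against 3 and 9, and MIR144 had 0 and 6 against 0 and 3. The neuronal miRNA MIR124-1 had 23 and 84 counts against 58 and 41, and the liver miRNA MIR122 had 15 and 8 against 9 and 9. In counts, MIR1-1, MIR206, MIR133A1 and MIR142 were higher in both 52X T4A libraries than in both 52X WT libraries. In CPM, the groups did not overlap in 40.1% of all tested features. MIR451A, MIR144, MIR124-1 and MIR122 overlapped between the groups. The part of these miRNAs in the values below was not tested. Reads were counted at more than 1 overlapping feature, as seen from coextensive pairs: in 13 of 13 same-strand pairs whose ends lay within 2 bases of each other, both features held identical counts in all 4 libraries. No member miRNA exceeded its snoRNA in any library. The miRNA count is therefore treated as part of the snoRNA count, although each hairpin extends 3 to 12 bases past its snoRNA. The values of a pair are not independent. Counts per feature do not give the ends or lengths of reads, so mature miRNA cannot be told from other fragments of the snoRNA. Levels and fold changes of a miRNA below are those of its hairpin feature.

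MIR664A had the most counts of the 4 miRNA features over all libraries. It had 67 and 187 counts in 52X T4A and 72 and 55 in 52X WT, or 4.23 and 5.92 CPM against 4.93 and 2.92 CPM. The groups overlapped, since the first 52X WT library lay between both 52X T4A libraries. The means were 5.08 ± 1.19 and 3.93 ± 1.42 CPM (SD, n = 2 each), and the log2 fold change of 52X T4A over 52X WT was 0.39 (SE 0.39, adjusted p = 0.722, edgeR quasi-likelihood test over all tested features). SNORA36B, its snoRNA, had 70 and 194 counts in 52X T4A and 74 and 61 in 52X WT. Its log2 fold change was 0.36 (SE 0.38, adjusted p = 0.729).

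MIR1248 was next in level, and 1 library stood apart. It had 47 and 54 counts in 52X T4A and 80 and 30 in 52X WT, which gave 2.97 and 1.71 CPM against 5.48 and 1.59 CPM. The 52X WT libraries were the highest and the lowest of the 4. The log2 fold change was −0.61 (SE 0.56, adjusted p = 0.682 by edgeR). It turned to 0.46 without the first 52X WT library and was −1.27 without the second. Each of these fits had only 1 library left in 52X WT. SNORA81 followed with 53 and 55 counts against 81 and 33 and a log2 fold change of −0.53 (SE 0.55, adjusted p = 0.729). No direction can be given for this pair.

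MIR1291 was lower still, with 23 and 22 counts in 52X T4A and 20 and 7 in 52X WT, or 1.45 and 0.697 CPM against 1.37 and 0.372 CPM. The groups overlapped, and in each group the second library was lower than both first libraries. The log2 fold change was 0.29 (SE 0.65, adjusted p = 0.917), and it turned to −0.28 without the first 52X T4A library and to −0.43 without the second 52X WT library. SNORA34 had 24 and 25 counts against 20 and 8, with a log2 fold change of 0.35 (SE 0.61, adjusted p = 0.869).

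MIR3651 was the only member whose groups did not overlap, and it rested on few reads. It had 3 and 11 counts in 52X T4A and 1 and 1 in 52X WT, or 0.189 and 0.348 CPM against 0.0685 and 0.0531 CPM. Of all tested features, 40.1% (594 of 1480) had groups that did not overlap. MIR3651 was below the minimum for testing. Summed over libraries, 14 against 2 counts gave a rate ratio of 4.93 with an exact 95% interval of 1.13 to 44.7, which covers counting error only and compares libraries rather than conditions. With the filter on low counts removed, edgeR gave a log2 fold change of 2.16 (SE 1.08, adjusted p = 0.570), and the member was not called. SNORA84 had 36 and 78 counts in 52X T4A and 31 and 38 in 52X WT, or 2.27 and 2.47 CPM against 2.12 and 2.02 CPM. Its groups did not overlap either, and the log2 fold change was 0.20 (SE 0.36, adjusted p = 0.877).

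**Figure D2:**
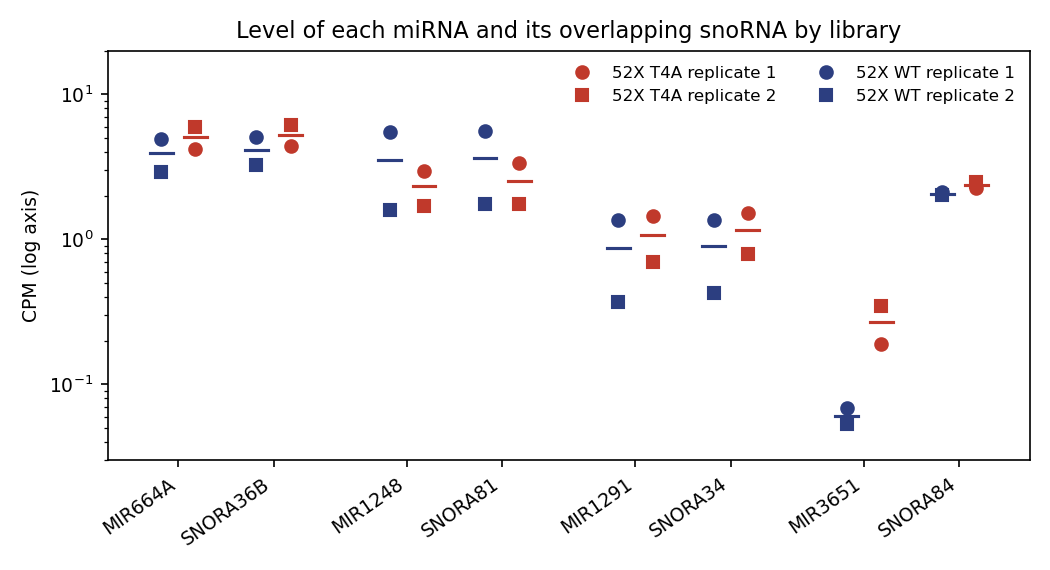
CPM on a log axis of each miRNA and its overlapping snoRNA, 1 point per library (red 52X T4A, blue 52X WT, circles replicate 1, squares replicate 2), with group means as bars. MIR3651 lies at 0.348 CPM or less, far below SNORA84 at 2.02 to 2.47 CPM, whereas the other miRNAs lie close to their snoRNAs.

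None of the 3 tested members or their 4 snoRNAs passed an adjusted p of 0.05 with a fold change above 1.5. The background was 0.135%, or 2 called features (MIR34C and MIR203B) of 1480 tested, and against this background a count of 0 of 7 is not a result about the members. At an unadjusted edgeR p below 0.05 there were 152 of the 1480 tested features and none of these 7, whose smallest unadjusted p was 0.309, for MIR1248. DESeq2, run on all 7062 features, called 28 and none of the 7. The 3 tested miRNAs share counts with their snoRNAs, so the 7 are not independent. With so few features, these counts of 0 are not results about the members either. Median log2 fold changes were −0.05 over all tested features, −0.02 over 621 tested miRNAs and 0.13 over 115 tested H/ACA snoRNAs. Of these snoRNAs, 0 were called (smallest edgeR adjusted p = 0.421). A value above 0 was found in 70 of the 115 snoRNAs and in 682 of all 1480 tested features.

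Levels between genes were compared per length, as CPM per kilobase over the 4 libraries. MIR664A stood at 54.9 ± 15.4 (SD, n = 4), MIR1248 at 27.7 ± 17.0, MIR1291 at 11.2 ± 6.03 and MIR3651 at 1.83 ± 1.52. Per kilobase the order was the same in 4 of 4 libraries at each step. The mean log2 ratios were 1.13 ± 0.81 from MIR664A to MIR1248, 1.32 ± 0.52 from MIR1248 to MIR1291 and 2.82 ± 1.36 from MIR1291 to MIR3651. The closest approach was in the first 52X WT library, where MIR664A exceeded MIR1248 by 0.22 on the log2 scale. In that library MIR1248 was above MIR664A in CPM (5.48 against 4.93), so the order there rests on the division by annotated length. Among 1270 miRNAs with counts, whose median was 5.65 CPM per kilobase, the members ranked 324, 397, 527 and 843. Their snoRNAs stood at 36.0 (SNORA36B), 17.4 (SNORA81), 7.49 (SNORA34) and 16.7 CPM per kilobase (SNORA84). They ranked 32, 52, 82 and 53 among 236 H/ACA snoRNAs with counts. SNORA84 and SNORA81 were thus neighbours in mean level, while their miRNAs were not. Over the libraries, SNORA81 ranged from 9.78 to 31.2 CPM per kilobase and SNORA84 from 15.2 to 18.6. Such values also depend on the annotated length of each feature.

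The share of snoRNA counts also held by the miRNA was far lower for MIR3651 than for the other members. In SNORA36B it was 95.7% and 96.4% in 52X T4A and 97.3% and 90.2% in 52X WT, and pooled over libraries 381 of 399 counts (95.5%, exact 95% interval 93.0 to 97.3). In SNORA81 it was 88.7% and 98.2% against 98.8% and 90.9%, pooled 211 of 222 counts (95.0%, 91.3 to 97.5). In SNORA34 it was 95.8% and 88.0% against 100% and 87.5%, pooled 72 of 77 counts (93.5%, 85.5 to 97.9). The hairpins spanned 56.5%, 57.9% and 54.7% of these snoRNAs. A share of length is not the share of counts to expect, since a read can reach both parts of a snoRNA. The overlap needed for counting is not stated either. Few counts were held by the snoRNA alone, namely 18 in SNORA36B, 11 in SNORA81 and 5 in SNORA34 over all libraries.

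In SNORA84 the reverse was found. The MIR3651 hairpin spanned 65.4% of the snoRNA, yet it held 16 of 183 counts (8.74%, 5.08 to 13.8). The other 167 counts were given to SNORA84 but not to the hairpin, which leaves bases 1 to 46 of the snoRNA, although the overlap that counting required is not stated. Per library the share was 8.33% (1.75 to 22.5) and 14.1% (7.26 to 23.8) in 52X T4A and 3.23% (0.0816 to 16.7) and 2.63% (0.0666 to 13.8) in 52X WT. The group means were 11.2 ± 4.08% and 2.93 ± 0.420%, a difference of 8.29 percentage points, and the groups did not overlap, but the intervals of single libraries did. A two-sided exact permutation test gave p = 0.333, the smallest that 2 against 2 libraries allow. The part of SNORA84 outside MIR3651 had 33 and 67 counts in 52X T4A and 30 and 37 in 52X WT, a log2 fold change of 0.07 (SE 0.36, adjusted p = 0.981 by edgeR). In the other pairs the share differed by 2.32 (SNORA36B), −1.41 (SNORA81) and −1.83 percentage points (SNORA34), with overlapping groups and exact permutation p-values of 1, 0.667 and 1. Over the 6 pairs tested, including both pairs described next, each adjusted p was 1.

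**Figure D3:**
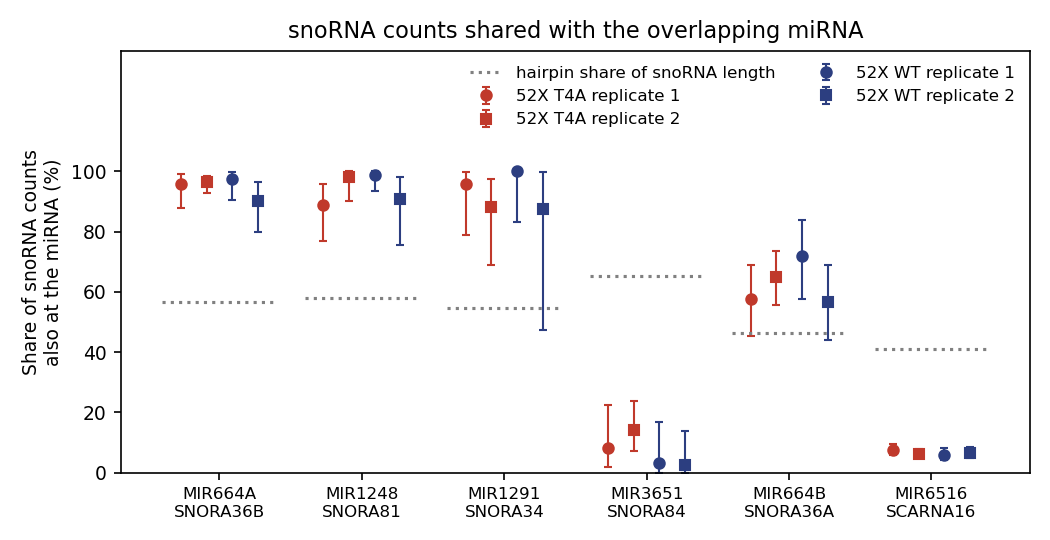
Share of snoRNA counts also held by the overlapping miRNA, in percent, per library with exact 95% intervals (counting error only), the dotted line marking the share of snoRNA length that the hairpin spans. SNORA36B, SNORA81 and SNORA34 lie at 87.5% or more, SNORA84 at 14.1% or less. The dotted line is a share of length and not the share of counts to expect.

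MIR664B, the fifth miRNA in an H/ACA snoRNA, lies in SNORA36A, in the DKC1 gene for dyskerin on chromosome X. SNORA36A and SNORA36B had 116 identical bases in 132 aligned positions (87.9%), and the mature miRNAs of MIR664B are close in sequence to those of MIR664A but have other seeds (in capitals, RefSeq GRCh38.p14).
miR-664b-5p: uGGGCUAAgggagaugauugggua
miR-664b-3p: uUCAUUUGccucccagccuaca
MIR664B held 57.5% and 65.0% of SNORA36A counts in 52X T4A and 72.0% and 56.7% in 52X WT, pooled 192 of 307 (62.5%, 56.9 to 68.0). In every library this was below the share of MIR664A in SNORA36B, but the MIR664B hairpin is annotated shorter, with 61 bases, and starts at base 69 of the snoRNA, where that of MIR664A starts at base 58. MIR664B had 42 and 76 counts against 36 and 38, with a log2 fold change of 0.17 (SE 0.36, adjusted p = 0.913). SNORA36C on chromosome 2 had 302 counts in all to the 307 of SNORA36A, nearly equal in each library, so those loci cannot be told apart here. Added after its values were seen, MIR6516 in SCARNA16, a small Cajal body RNA, held 241 of 3608 counts (6.68%, 5.89 to 7.54), close to the low share in SNORA84.

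Other small RNAs of the EIF4A2, KANSL2 and DKC1 genes, and SNORA36C as a copy of SNORA36A, formed a list of 10 features, of which 7 were tested and 0 called. DKC1 hosts MIR664B and none of the 4 members. Log2 fold changes of these 7 ranged from −0.63 to 0.26 with a median of 0.13, with 5 above 0 and 2 below. Over all tested features of the series, 682 of 1480 were above 0. SNORA36A, SNORA36C and MIR664B, all above 0, hold overlapping or nearly equal counts and are not independent. SNORD2, a C/D box snoRNA that guides 2′-O-methylation and lies in EIF4A2 like SNORA81, had 1204 and 1588 counts in 52X T4A and 2110 and 960 in 52X WT. In counts, the first 52X WT library was the highest and the second the lowest, as for MIR1248. In CPM the first 52X WT library was still the highest, at 145. The lowest was then the second 52X T4A library, at 50.3 CPM against 51.0 in the second 52X WT library. The log2 fold change of SNORD2 was −0.63 (SE 0.45, adjusted p = 0.590 by edgeR). SNORA63 of the same host (ENSG00000200320.1) had 85 and 101 counts against 82 and 53 and a log2 fold change of 0.02 (SE 0.44, adjusted p = 0.994), while SNORA4 had 2 counts in all and was not tested. The other SNORA63 feature in EIF4A2 (ENSG00000200418.1) had 4 and 1 counts against 1 and 4 and was not tested. SNORA2A, in KANSL2 beside SNORA34, had 14 and 17 counts against 16 and 4 (log2 fold change 0.13, SE 0.71). SNORA2B, also in KANSL2, had 1 and 0 counts against 4 and 4, too few to test. SNORA56, in DKC1, was the most abundant H/ACA snoRNA of the list, with 376 and 635 counts against 326 and 455 (log2 fold change −0.09, SE 0.30).

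**Figure D4:**
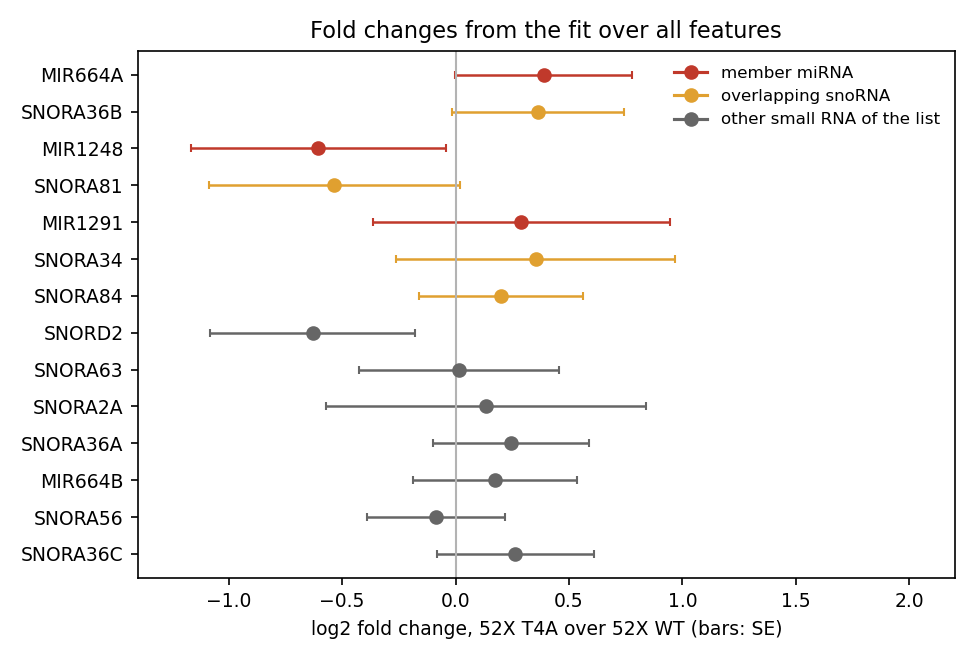
Log2 fold change of 52X T4A over 52X WT (points) with SE (bars) for tested members (red), their overlapping snoRNAs (orange) and other small RNAs of the list (grey), MIR3651 being too low to test. Each miRNA lies near its snoRNA, and 0 of these features were called.

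The features whose profiles over the 4 libraries lay nearest to each tested member were found by the root mean square difference of centred log2 CPM over 755 candidates averaging 100 counts or more per library. For MIR1248 these were SNORD90 (0.0858), SNORD2 (0.117) and SNORA53 (0.123), where the median candidate was at 0.698. For MIR664A they were MIR342 (0.0978), MIR30B (0.121) and MIR23C (0.141). For MIR1291 the nearest were farther off, SNORD54 (0.341), SNORD69 (0.349) and SNORA9 (0.352). With 4 libraries, such likeness is a description only.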

How the data were processed

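The authors deposited raw read counts per feature for each of the 4 libraries, with no normalization. Per the submitters' processing notes, cutadapt 4.6, Bowtie2 2.3.5.1, featureCounts 1.5.0 and hg38 were used; their settings, the annotation and the handling of reads on several features are not given in the sources used here. Features were named from GENCODE v44lift37 by identifier (5579) or from RefSeq GRCh38.p14 by identical position (908, the members included), and 575 kept no name.

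Groups were taken from the sample labels. Counts were filtered (filterByExpr, minimum count 10), scaled by TMM and tested by the edgeR 4.0.16 quasi-likelihood test in R 4.3.3, with Benjamini-Hochberg adjustment over 1480 features. A call needed an adjusted p below 0.05 and a fold change above 1.5. SE is the size of the log2 fold change divided by the square root of F. The biological coefficient of variation was 26.0%. The fit was tested on simulated data. Shares carry exact (Clopper-Pearson) intervals of 95%, which cover counting error only, since no molecular identifiers were used. Genes named were the members, their snoRNAs, other miRNAs in H/ACA or C/D snoRNAs (0 of the latter), the list of relatives and the 3 nearest profiles per tested member. Outside this rule, the called features, the miRNAs that mark the cell line or other cell types, and MIR6516 with SCARNA16 were also named. Members and lists were chosen with earlier results of these data known. Alternatives were DESeq2 1.42.0, other scalings, no filter, no fold threshold, snoRNA features left out, a replicate block and leaving out each library.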

Additional observations from a re-analysis of the deposited data

How the results depend on the processing

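The number of called features, 2 in all, was 9 with library size alone, 29 with no filter, 18 with the replicate block and 28 with DESeq2, and 0 to 231 when a library was left out (0 without the first and 231 without the second 52X WT library). A lone library left in a group was assumed to vary like the other group. Leaving out a library gave log2 fold changes of 0.03 to 0.77 for MIR664A and 0.01 to 0.67 for SNORA36B. The range was −1.27 to 0.46 for MIR1248, reversed to 0.46 without the first 52X WT library and lowest without the second. It was −1.17 to 0.44 for SNORA81, reversed without the first. It was −0.43 to 1.39 for MIR1291, reversed to −0.28 without the first 52X T4A library and to −0.43 without the second 52X WT library, and −0.32 to 1.31 for SNORA34, where these gave −0.14 and −0.32. For SNORA84 it was 0.05 to 0.25, and for its part outside MIR3651 −0.0244 to 0.0782, the lowest without the second 52X T4A library. Among relatives, SNORD2 gave 0.25 without the first 52X WT library and −1.20 without the second. Without the first 52X T4A and the second 52X WT library, SNORA63 gave −0.39 and −0.42 and SNORA2A −0.22 and −0.69 (up to 0.53 and 1.60 without others). SNORA56 gave 0.0713 with upper quartile factors and 0.0814 with library size alone. Differences in share ranged from −1.24 to 5.89 percentage points in SNORA36B, −6.16 to 3.34 in SNORA81, −8.08 to 4.42 in SNORA34, −10.8 to 4.53 in SNORA36A and 5.40 to 11.2 in SNORA84. The causes were not tested. The labels do not say that replicate numbers pair the libraries, and deviations of same-numbered libraries correlated at 0.0946. With the replicate block, log2 fold changes were 0.41 for MIR664A, −0.42 for MIR1248 and 0.43 for MIR1291, and none of these was called. MIR3651, with 16 counts in all, was below the minimum for testing in the main fit.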
